A study of Mus musculus with 10 samples.

Results

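Aminoacyl-tRNA synthesis was followed through the 44 genes that the deposited gene table assigns to the KEGG pathway of that name, out of 18223 genes in the table. Every gene with that entry in the pathway column was taken. The samples were 10 subcutaneous tumours of MC38, a mouse colon adenocarcinoma cell line. Of these, 5 were labelled HTB, for high tumour burden, and 5 LTB, for low. The treatment label reads 2000000 in HTB and 500000 in LTB, each with 14 days, taken here as cells injected and days of growth. Mouse strain, age, sex and measured tumour size are not in the labels, and no other treatment is named. Whether the libraries are from separate animals is not stated, so p-values cover only the spread between libraries, which may be technical.

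Aminoacyl-tRNA synthetases join each amino acid to its tRNA, the step that sets the accuracy of translation. Mammalian cells keep separate enzymes, from separate nuclear genes, for the cytosol and for the mitochondrion, where a small set of proteins is translated. Several cytosolic enzymes sit together in the multi-synthetase complex. Genes of cytosolic enzymes are known targets of ATF4, the transcription factor of amino acid stress, and the tryptophan enzyme is known to be induced by interferon gamma. By gene name and textbook role, 19 members were cytosolic, 2 (Gars for glycine and Kars for lysine) serve both compartments, 17 were mitochondrial enzymes, 4 were mitochondrial partners that modify a charged tRNA, and 2 (Pstk and Sepsecs) make selenocysteine on its tRNA.

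All 44 genes passed the filter on low counts, in libraries of 23070903 to 27185152 estimated reads. Of the labelled cell type, an epithelial line, the epithelial markers were near 0: Epcam stood at 0.166 to 0.952 CPM (read counts scaled to a common library total) in HTB and 0.467 to 1.82 in LTB, and the keratin genes Krt8, Krt18 and Krt19 were too low to be tested. HTB replicate 2 stood apart, with 13649 CPM summed over 7 muscle markers against 7.36 to 48.1 in the other HTB libraries and 4.01 to 6.21 in LTB. In tissue of mixed cells, fewer cells of a type and less RNA per cell cannot be told apart.

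Promoter sequence is shown first, because a response element of the amino acid stress pathway was found at cytosolic genes. The RefSeq promoter table (GRCm38.p6), with 250 bases before and 50 after each start, held 32 of the 44 members. The C/EBP-ATF response element, to which ATF4 is known to bind, searched as TGATGNAA on both strands, was present in 5 of 14 members that are cytosolic or serve both compartments (Aars, Iars, Tars, Yars and Gars) and in 0 of 17 mitochondrial enzymes and partners. Over all genes of the table, 4.51% had such a match. A match is only a description of these letters. The coordinates of Aars refer to 1 of its annotated starts, and the starts used for Aars and Yars lie inside their RefSeq spans. In the sequences below, given 5′ to 3′ on the gene's strand, capitals mark the match, and for Kars a match to the STAT site TTCNNNGAA.
Aars, chr8:111033712-111033841, plus strand: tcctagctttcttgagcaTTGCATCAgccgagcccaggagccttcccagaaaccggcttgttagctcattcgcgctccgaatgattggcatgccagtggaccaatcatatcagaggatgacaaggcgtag
Tars, chr15:11399659-11399718, minus strand: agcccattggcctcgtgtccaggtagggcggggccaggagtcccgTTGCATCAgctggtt
Gars, chr6:55037941-55038000, plus strand: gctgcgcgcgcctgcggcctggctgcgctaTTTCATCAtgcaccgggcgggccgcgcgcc
Kars, chr8:112011355-112011414, minus strand: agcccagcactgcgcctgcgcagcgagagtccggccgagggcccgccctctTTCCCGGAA
Iars, chr13:49682120-49682149, plus strand: gcctggcactgtcagtaTTGCATCAcctcc
Yars, chr4:129189893-129189922, plus strand: cgacgagctcagcTGATGCAAcccgacggg
The first 4 stretches end at the base before the start. Those of Iars and Yars run from 10 bases before the start to 20 after it.

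The interferon-stimulated response element, searched on both strands as GAAA and GAAA with any 2 bases between them, was found in 1 member, Qars (3.99% of all genes). The STAT site, a palindrome in these letters, was found in 4 members: Aars, Kars, Mtfmt and Nars2 (9.55% of all genes). The match of Aars, at -88 to -80 from its start, lies in the stretch above in lower case. Among the members with no window in the table were Wars, Cars, Gatb, Hars, Hars2, Lars, Nars, Pars2, Rars, Sepsecs and Vars.

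Levels were compared between genes on the authors' deposited mean expression of each group, whose unit the header does not name and which behaves like a value per transcript length; the comparisons of level between genes rest on that reading. On this scale the cytosolic enzymes were the higher class in both groups. In the authors' deposited table their median was 49.01 in LTB and 45.43 in HTB, against 8.29 and 7.59 for the mitochondrial enzymes. Of the 19 cytosolic genes, 18 lay above every mitochondrial enzyme in each group of the authors' deposited table. The exception was Tarsl2, which encodes a second threonine enzyme of the cytosol, at 4.46 in LTB and 5.16 in HTB in the authors' deposited table. Kars was the highest of all members, at 228 in LTB and 180 in HTB in the authors' deposited table, and Mars2, the mitochondrial methionine enzyme, the lowest at 2.37 and 2.47.

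**Figure D1:**
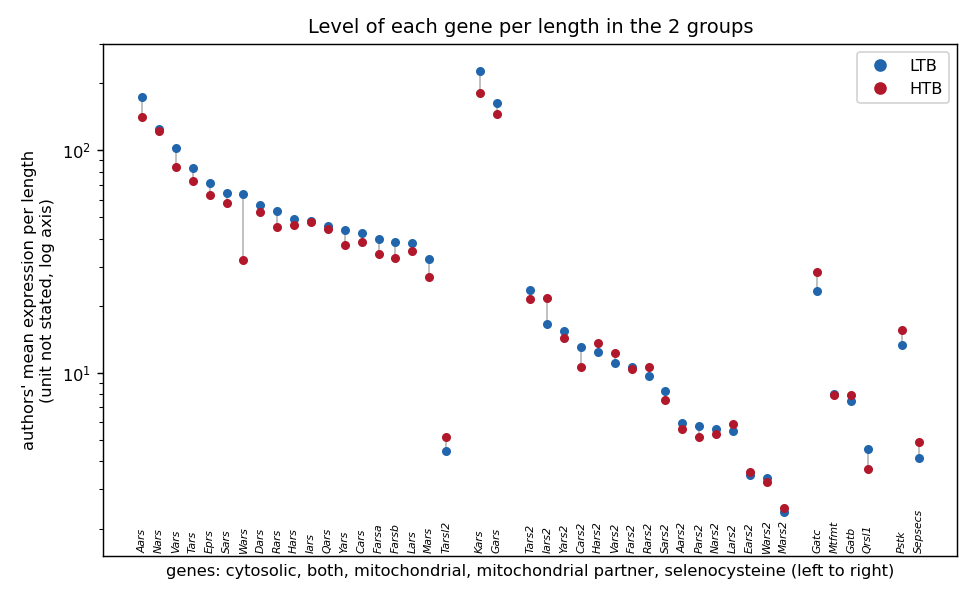
The authors' deposited mean expression per length of the genes (unit not stated, log axis), LTB in blue and HTB in red, grouped by class. The cytosolic genes other than Tarsl2 lie above all mitochondrial enzymes, and Wars shows the widest gap between the groups.

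Between the groups, 3 members fell in HTB (Wars, Kars and Mars) and 2 rose (Iars2 and Gatc), while 39 did not pass (edgeR quasi-likelihood test, Benjamini-Hochberg adjustment over 13469 genes, threshold 0.05). Over all genes tested, 7.51% were called lower and 3.91% higher, so 3 and 2 of 44 (6.82% and 4.55%) are shares near the background. With DESeq2, 7 members were lower (15.9%) where 8.16% of all genes were, and 2 were higher (4.55%) where 6.26% were. With HTB replicate 2 and LTB replicate 1, the libraries with the most muscle and immune markers, both left out, 6 members fell and 2 rose, in a fit that called 12.4% of all genes lower and 9.26% higher. The members moved little: the log2 fold change, HTB over LTB, was under 0.3 in size in 38 of the 44. The largest was that of Wars. Of the 44, 2 lay wholly lower and 1 wholly higher in HTB, where 7.06% and 4.68% of all genes tested did.

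**Figure D2:**
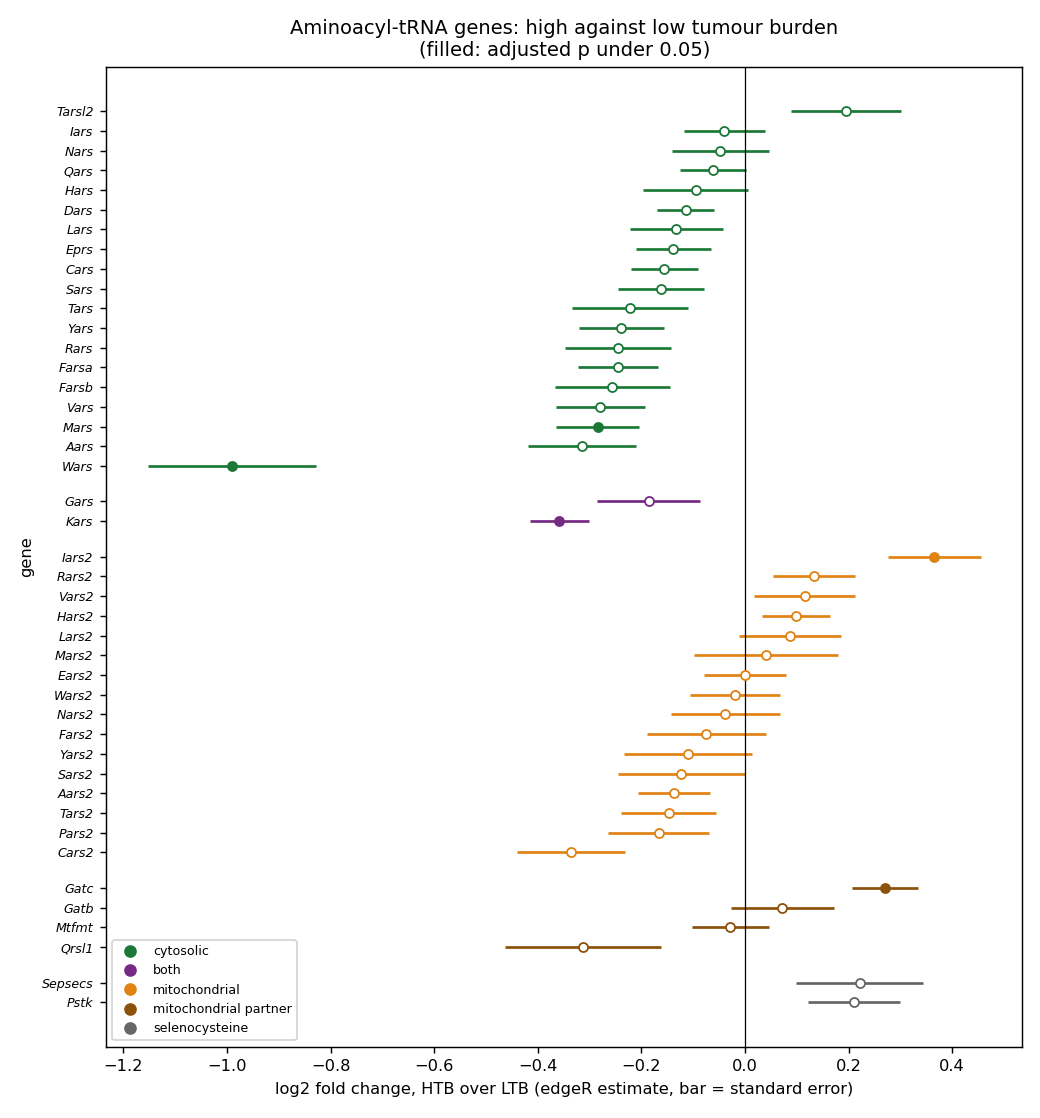
The log2 fold change, HTB over LTB, of the genes with its standard error, by class; filled points have an adjusted p under 0.05. Of the 19 cytosolic genes 18 lie left of 0, while the mitochondrial enzymes lie on both sides.

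Wars (NCBI gene 22375), the cytosolic tryptophan enzyme, spans chr12:108860030-108894175 on the minus strand (RefSeq span in GRCm38.p6, strand from GENCODE M21, exons and introns together). It had 83.9, 87.4, 87.9, 91.6 and 81.9 CPM in HTB replicates 1 to 5 and 249, 119, 178, 167 and 145 CPM in LTB replicates 1 to 5. Every HTB library lay below every LTB library, and the LTB libraries were spread more widely, with a coefficient of variation of 28.5% against 4.39% in HTB. The mean was 1.99-fold higher in LTB, 172 ± 49.0 against 86.5 ± 3.80 CPM (SD, n = 5 each). The log2 fold change was -0.99 ± 0.16 (SE; adjusted p = 0.0054, edgeR). It passed under all 20 other fits, at -1.10 to -0.79. Its mitochondrial counterpart Wars2 stood at 14.2 ± 1.35 CPM in HTB and 14.3 ± 0.70 in LTB (log2 fold change -0.02 ± 0.09, adjusted p = 0.907).

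Genes of the interferon gamma route moved in the same direction as Wars: 10 of 10 listed genes fell, where 7.51% of all genes tested did. Their median log2 fold change was -1.87 (all genes tested 0.02). The list was chosen with earlier results of these data known. The guanylate-binding protein gene Gbp2, the peptide transporter gene Tap1 and the transcription factor gene Irf1 had the smallest p-values, with log2 fold changes of -2.45, -1.57 and -1.40. Summed over the 10 genes, the level was 612 to 878 CPM in HTB, against 2091 to 3958 in LTB. Within LTB, the libraries ranked by Wars and by this sum came in the same order, replicates 1, 3, 4, 5 and 2. Within HTB the order by the sum was the reverse of the order by Wars. The ranking is over 5 libraries a group that share their scaling, and no test was made.

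Markers of some immune cells were also lower in HTB. Over all genes tested, 7.51% were called lower at the threshold of 0.05. The summed level of 7 macrophage markers was 542 to 919 CPM in HTB and 943 to 1913 in LTB. All 7 had log2 fold changes below 0, and 3 were called lower in HTB. The sum of the 6 T cell markers in the table was 14.2 to 38.0 CPM in HTB and 36.7 to 167 in LTB. All 6 were below 0, and 4 were called lower. The sum of 3 mast cell markers was 3.77 to 13.3 CPM in HTB and 14.9 to 47.2 in LTB. All 3 were below 0, and 2 were called lower, Cpa3 (log2 fold change -3.22) and Mcpt2, which was at 0 in 3 HTB libraries. LTB replicate 1 was the highest library for the 3 sums and for Wars. Past that library the orders differed. Within LTB, Wars was lowest in replicate 2, the macrophage sum in replicate 4 and the T cell sum in replicate 5. Within HTB, replicate 4 had the most Wars and the lowest T cell sum. The sum of 4 neutrophil markers overlapped, 3.44 to 22.3 CPM in HTB and 5.92 to 50.1 in LTB, and 0 of 3 tested passed. The part of these cells in the difference of Wars was not tested. With HTB replicate 2 and LTB replicate 1 left out, the 10 interferon gamma route genes still fell, and Wars stood at -0.82. In that fit 3 macrophage and 4 T cell markers were still called lower, where 12.4% of all genes were.

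**Figure D3:**
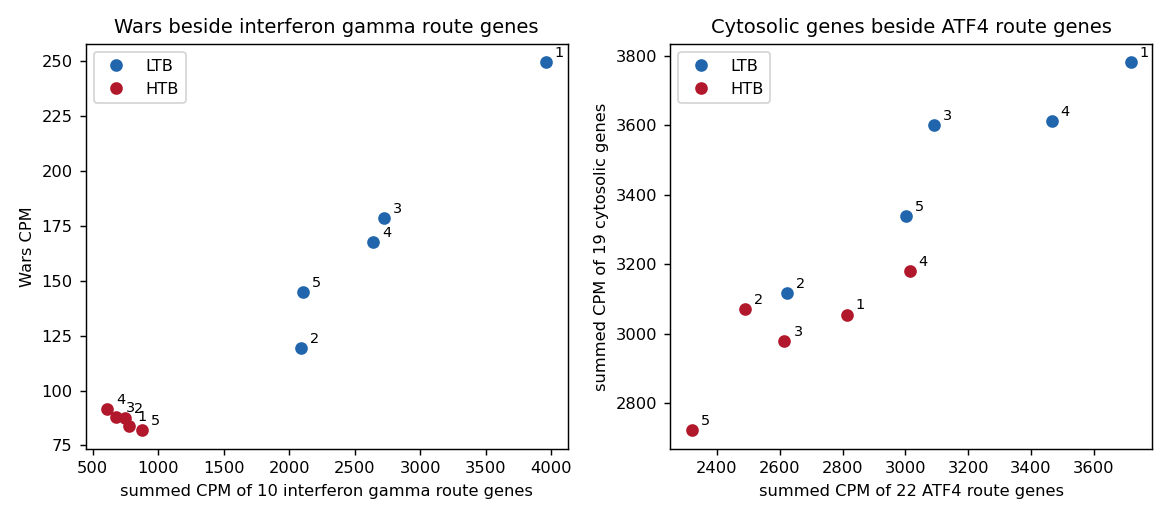
Left: Wars CPM against the summed CPM of 10 interferon gamma route genes. Right: the summed CPM of the 19 cytosolic genes against that of 22 ATF4 route genes. Points are libraries, numbered by replicate, LTB blue and HTB red; on the left the HTB libraries reach at most 91.6 CPM of Wars and the LTB libraries start at 119.

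Kars (85305; chr8:111993439-112011354, minus strand), the lysine enzyme that serves cytosol and mitochondrion from alternatively spliced transcripts of a single gene, had 365, 325, 380, 343 and 351 CPM in HTB and 471, 435, 438, 453 and 464 CPM in LTB. The groups did not overlap, and no library stood apart. It fell to a mean of 353 ± 21.0 CPM from 452 ± 15.6 (SD, n = 5 each), by -0.36 ± 0.06 on the log2 scale (SE; edgeR, adjusted p = 0.0049), and passed under all 20 other fits. Gars, the other gene of both compartments, stood at 331 ± 32.7 CPM in HTB and 377 ± 46.1 in LTB, with overlapping groups (log2 fold change -0.19 ± 0.10, adjusted p = 0.237). Counts per gene do not separate the cytosolic from the mitochondrial form of either.

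Mars (216443; chr10:127296221-127311786, minus strand), the cytosolic methionine enzyme, had 79.2, 90.3, 72.2, 73.2 and 69.8 CPM in HTB and 94.1, 86.0, 104, 93.7 and 90.8 CPM in LTB. Only HTB replicate 2 reached into the LTB range. The log2 fold change was -0.28 ± 0.08 (SE; adjusted p = 0.0447, edgeR), close to the threshold. The call passed in 9 of 20 other fits. It was lost with upper-quartile factors (adjusted p = 0.0507), when low genes were not filtered out (adjusted p = 0.0554) and without any 1 of 8 libraries (HTB replicates 1, 3, 4 and 5 and LTB replicates 1, 3, 4 and 5; adjusted p 0.0634 to 0.108). Mars overlaps the stress gene Ddit3 by 71 bases in RefSeq, and the strand setting of the counting is not given; Ddit3 itself stood at -0.25 ± 0.26 (log2, adjusted p = 0.55).

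**Figure D4:**
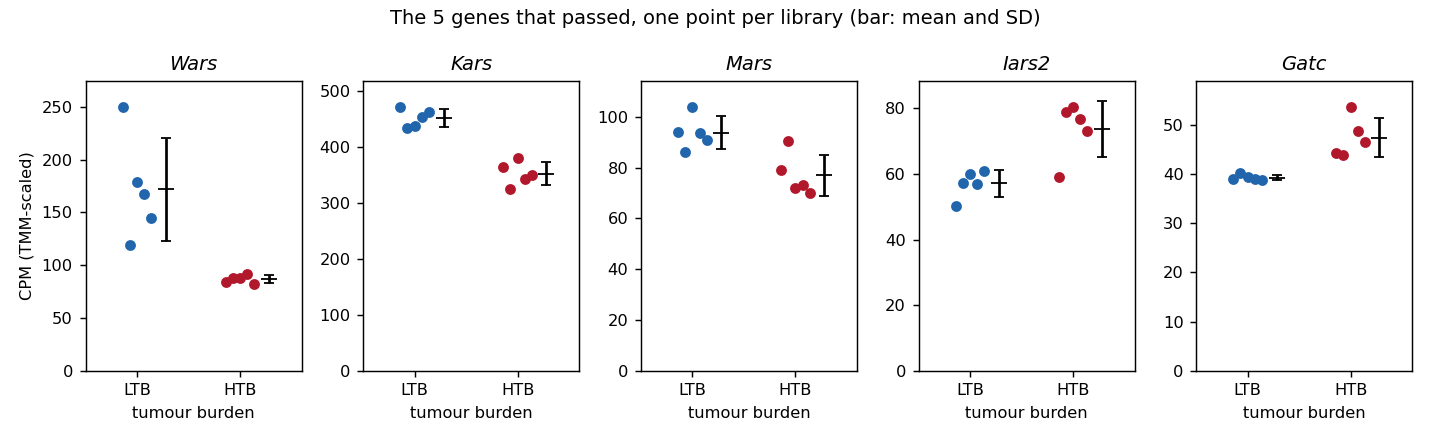
CPM of the 5 genes that passed, one point per library with the mean and SD beside it, LTB blue and HTB red, each axis from 0. Wars, Kars and Gatc do not overlap between the groups, while Mars in HTB replicate 2 and Iars2 in HTB replicate 1 reach into the LTB range.

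Of the 19 cytosolic genes 17 did not pass, and several lay close to the threshold. Aars, the alanine enzyme, stood at 403 to 522 CPM in HTB, against 471 to 676 in LTB (log2 fold change -0.32 ± 0.10, adjusted p = 0.0751). The lowest LTB value belonged to replicate 2, and without that library Aars passed at -0.39 (adjusted p = 0.0268). Vars, the valine enzyme, stood at 292 to 382 CPM in HTB, against 373 to 453 in LTB (-0.28 ± 0.09, adjusted p = 0.0596). It passed without HTB replicate 2, its highest HTB library, at -0.33 (adjusted p = 0.0173). Farsa, a subunit gene of the phenylalanine enzyme, also passed without that library (-0.28, adjusted p = 0.0265), as did the gene of the other subunit, Farsb (-0.33, adjusted p = 0.0375). Yars, the tyrosine enzyme, passed without LTB replicate 2 (-0.29, adjusted p = 0.0437). Of 20 other fits, Vars and Farsa passed in 4, Aars in 3, Farsb in 2 and Yars in 1. The fit without HTB replicate 2 called 12.7% of all genes lower, against 7.51% with all libraries. With HTB replicate 2 and LTB replicate 1 both left out, Vars and Farsa passed, while Aars (-0.21), Farsb and Yars did not. With all 10 libraries the adjusted p was 0.0625 for Farsa, 0.154 for Farsb and 0.0869 for Yars. The RefSeq spans of Aars and Farsb overlap those of Ddx19b, by 3974 bases, and Sgpp2, by 2332. At the other end, Iars, Nars, Qars and Hars, the cytosolic enzymes for isoleucine, asparagine, glutamine and histidine, had log2 fold changes of -0.04 to -0.10. The one cytosolic gene above 0 was Tarsl2 (0.19 ± 0.11, adjusted p = 0.249), whose highest value, 19.5 CPM, belonged to HTB replicate 2.

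As a class, the cytosolic genes were slightly below 0 together. The median log2 fold change of the 19 was -0.16, and 18 were below 0, where over all genes tested the median was 0.02 and 47.3% were below 0. Without Wars the median of the other 18 was also -0.16. Summed over the 19 genes, the level was 2721 to 3180 CPM in HTB, against 3116 to 3780 in LTB. The ranges overlapped through HTB replicate 4 and LTB replicate 2. Of the 8 enzymes known to sit in the multi-synthetase complex (Eprs, Iars, Lars, Mars, Qars, Rars, Kars and Dars), 2 fell and the median was -0.14. Those were Mars and Kars, of which Kars serves both compartments. Of the other 13 genes that are cytosolic or serve both, 1 fell and the median was -0.22. Over all genes tested, 7.51% were called lower, and this grouping was made after the values were seen. None of the 3 scaffold genes of the complex passed: Eef1e1 stood at -0.36 ± 0.18, Aimp2 at -0.21 ± 0.10 and Aimp1 at 0.05 ± 0.06. Aimp2 passed without HTB replicate 2 (-0.30, adjusted p = 0.0169), and in 3 of 20 other fits in all.

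Of 22 genes of the ATF4 route, 2 fell, where 7.51% of all genes tested did. Of the 22, 21 were below 0 (47.3% of all genes tested were), with a median of -0.29. With HTB replicate 2 and LTB replicate 1 left out, 2 again fell, in a fit that called 12.4% of all genes lower. In that fit 19 of the 22 were below 0, and the median was -0.17. Those that fell were Atf3, a stress-induced transcription factor (-0.95 ± 0.24, adjusted p = 0.0305), and Shmt2, the mitochondrial serine hydroxymethyltransferase (-0.46 ± 0.13, adjusted p = 0.0423). Atf3 passed in 16 of 20 other fits and lost the call without HTB replicate 1, 3 or 5 (adjusted p 0.0633 to 0.0778). Shmt2 passed in 11 and lost the call without any 1 of 7 libraries (HTB replicates 1, 3 and 4 and LTB replicates 1, 3, 4 and 5; adjusted p 0.0654 to 0.0866). Psat1, of serine synthesis, had the next smallest p and did not pass (-0.34 ± 0.11, adjusted p = 0.0789; 0.0355 without HTB replicate 2), and Atf4 itself stood at -0.38 ± 0.14 (adjusted p = 0.0967). The summed level of the 22 was 2321 to 3013 CPM in HTB, against 2624 to 3717 in LTB. Within LTB, the libraries ranked by this sum and by the cytosolic sum came in the same order, replicates 1, 4, 3, 5 and 2. Within HTB both sums were highest in replicate 4 and lowest in replicate 5. Between these the order was replicates 2, 1 and 3 by the cytosolic sum and 1, 3 and 2 by the ATF4 sum. Each ranking is over 5 libraries a group that share their scaling. The part of ATF4 in the difference of the cytosolic genes was not tested. The 5 promoters that hold the C/EBP-ATF element belonged to genes with log2 fold changes of -0.32 (Aars), -0.24 (Yars), -0.22 (Tars), -0.19 (Gars) and -0.04 (Iars), none of which passed.

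The mitochondrial enzymes lay on both sides of 0. Of 17, 1 rose (Iars2) and 0 fell, where 3.91% of all genes tested were called higher and 7.51% lower. Of the 17, 7 were above 0 (52.7% of all genes tested were) and 10 below, with a median of -0.03. At an unadjusted p under 0.05 there was 1 on each side, and DESeq2 called 1 lower, Cars2. With HTB replicate 2 and LTB replicate 1 left out, 5 were above 0 and 12 below, with a median of -0.09. The median of the cytosolic genes in that fit was -0.16. Iars2 (381314; chr1:185286642-185329419, minus strand), the mitochondrial isoleucine enzyme, had 59.1, 79.0, 80.3, 76.7 and 73.0 CPM in HTB and 50.3, 57.3, 60.0, 57.1 and 61.0 CPM in LTB. HTB replicate 1 lay inside the LTB range and the other 4 above it. It rose to a mean of 73.6 ± 8.58 CPM from 57.1 ± 4.18 (SD, n = 5 each), by 0.37 ± 0.09 on the log2 scale (SE; edgeR, adjusted p = 0.0275). The call was lost without HTB replicate 3, 4 or 5 or LTB replicate 1 or 4 (adjusted p 0.0511 to 0.0733). Its RefSeq span overlaps that of Rab3gap2 by 115 bases, and Rab3gap2 stood at 0.04 ± 0.08.

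Cars2, the mitochondrial cysteine enzyme, had the most negative estimate of the mitochondrial enzymes, -0.34 ± 0.10 (adjusted p = 0.0621). It stood at 16.1 to 22.4 CPM in HTB, against 21.1 to 24.6 in LTB. The highest HTB value belonged to replicate 2, and without that library Cars2 passed at -0.42 (adjusted p = 0.0098). Cars2 passed in 4 of 20 other fits. Next lowest was Pars2, the proline enzyme, at -0.17 ± 0.10 (adjusted p = 0.281). Ears2, Wars2 and Nars2 had log2 fold changes between -0.04 and 0.00. Summed over the 17 genes, the level was 386 to 451 CPM in HTB, against 387 to 423 in LTB, so the LTB range lay inside the HTB range.

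Of the 4 mitochondrial partners 1 rose, where 3.91% of all genes tested did. Gatc (384281; chr5:115333242-115341161, minus strand) encodes a subunit of the amidotransferase that converts glutamate on mitochondrial glutamine tRNA to glutamine. It had 44.3, 43.9, 53.6, 48.7 and 46.5 CPM in HTB and 39.1, 40.2, 39.5, 38.9 and 38.7 CPM in LTB. Every HTB library lay above every LTB library, and the LTB values were close together. The log2 fold change was 0.27 ± 0.06 (SE; adjusted p = 0.0231, edgeR), and the call was lost without HTB replicate 3 (adjusted p = 0.0531) or 4 (adjusted p = 0.0629). The other subunit genes of the same enzyme stood at 0.07 ± 0.10 (Gatb, adjusted p = 0.668) and -0.31 ± 0.15 (Qrsl1, adjusted p = 0.197), so the 3 subunits had estimates on both sides of 0. Mtfmt, which formylates the initiator methionine on its tRNA, stood at -0.03 ± 0.07. The RefSeq span of Gatc overlaps that of Srsf9 by 602 bases, and Srsf9 stood at 0.03 ± 0.10 (adjusted p = 0.88).

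The selenocysteine genes both had positive estimates that did not pass. Pstk, the kinase that phosphorylates serine on the selenocysteine tRNA, stood at 14.8 to 18.4 CPM in HTB, against 12.6 to 15.0 in LTB (0.21 ± 0.09, adjusted p = 0.144). The RefSeq span of Pstk overlaps that of Ikzf5 by 4120 bases. Sepsecs, the synthase of the next step, stood at 6.68 to 9.56 CPM in HTB, against 6.98 to 7.91 in LTB (0.22 ± 0.12, adjusted p = 0.258).

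The cytosolic and mitochondrial genes for the same amino acid were then set side by side in 18 pairs, as the log2 ratio of their CPM in each library. Eprs, which charges glutamate and proline, and Fars2, whose cytosolic counterpart has 2 subunit genes, each enter 2 pairs, and Tarsl2 enters none. The mean ratio was lower in HTB in 16 pairs and higher in 2, with a median difference of -0.17. With Tarsl2 over Tars2 as a further pair, added after its values were seen, 16 were lower and 3 higher. With HTB replicate 2 and LTB replicate 1 left out, the median difference of the 18 pairs was smaller in size, -0.10. With all libraries, the groups did not overlap in 3 pairs. For Wars over Wars2 the ratio was 2.42 to 2.83 in HTB and 3.10 to 4.21 in LTB. For Mars over Mars2 it was 3.42 to 3.59 against 3.64 to 4.02, and for Rars over Rars2, the arginine enzymes, 2.19 to 2.38 against 2.42 to 2.87. For single genes, 7.06% of all genes tested lay wholly lower and 4.68% wholly higher in HTB; ratios have no such background here, and the pairs are a description without a test. The isoleucine pair differed through its mitochondrial member, with Iars at -0.04 and Iars2 at 0.37. The cysteine pair went the other way, with a mean ratio of 2.37 in HTB and 2.18 in LTB, as did Tarsl2 over Tars2, at -1.63 and -1.97; both overlapped between the groups.

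**Figure D5:**
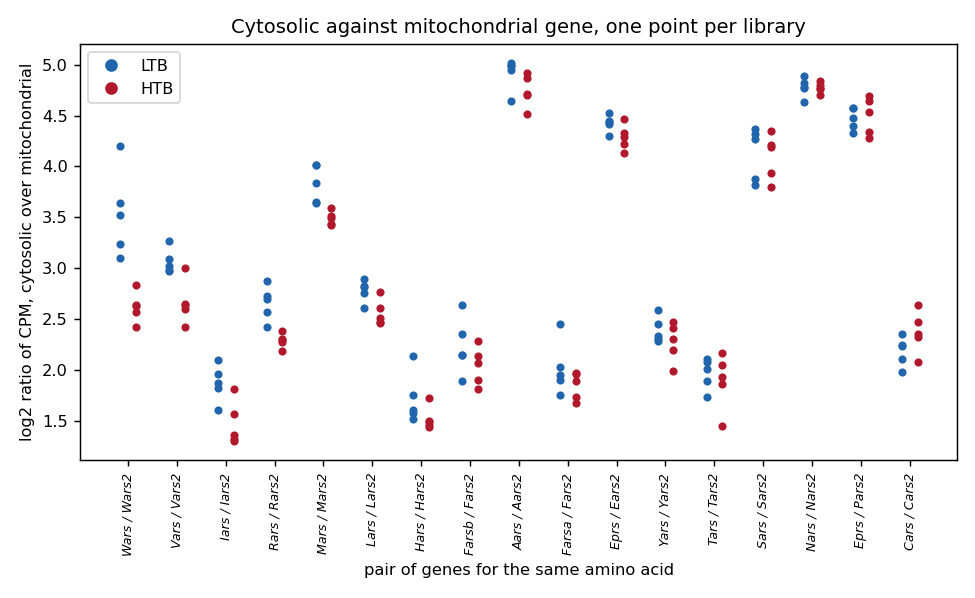
The log2 ratio of CPM, cytosolic over mitochondrial gene, for the pairs, one point per library, LTB blue and HTB red, ordered by the difference between the groups. The pairs of Wars, Mars and Rars do not overlap between the groups; the other pairs drawn do.

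Other steps of translation that make or use charged tRNA had few genes that passed. Of 5 cytosolic elongation factor genes, 0 passed and the smallest p belonged to Eef1g (-0.24 ± 0.09, adjusted p = 0.112). Of 9 mitochondrial translation factor genes, 0 passed, with Tsfm at -0.42 ± 0.14 (adjusted p = 0.0765). At an unadjusted p under 0.05 each of these lists had 1 gene lower and 0 higher, and DESeq2 called 0 of the first and 1, Tsfm, of the second. Without HTB replicate 2, Eef1g (-0.32, adjusted p = 0.0154) and Tsfm (-0.54, adjusted p = 0.0098) passed. Of 20 other fits in all, Eef1g passed in 3 and Tsfm in 4. Of 12 tested genes of mitochondrial tRNA maturation 1 rose, where 3.91% of all genes tested did. This was Nsun3, a methyltransferase of mitochondrial methionine tRNA. It stood at 11.3 ± 0.55 CPM in LTB and 14.7 ± 1.61 in HTB (log2 fold change 0.38 ± 0.09, edgeR adjusted p = 0.0292). Its groups did not overlap, where 4.68% of all genes tested lay wholly higher in HTB. It lost the call without any 1 of 6 libraries (HTB replicates 3, 4 and 5 and LTB replicates 1, 2 and 3; adjusted p 0.0550 to 0.0738). DESeq2 called 2 genes of the tRNA maturation list higher, where 6.26% of all genes were, and 0 lower, where 8.16% were.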

How the data were processed

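The deposited table of 10 RNA-seq libraries holds estimated counts of reads per gene that the authors had not scaled to depth, per the file headers. It also holds, per the file headers, the authors' log2 fold change, p-value and q-value from DESeq2, and a mean expression per group. The builds GRCm38 and mm10 are named in the submitters' processing notes. For the aligner, the counter and the strand used, the sources used here give nothing. The members and lists were chosen with earlier results of these data known, and the grouping of the multi-synthetase complex after the values were seen.

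Counts were rounded (86.4% were whole, tolerance 1e-09) and 1 line without a gene was left out. Library totals were 23070903 to 27185152 reads, with TMM factors of 0.975 to 1.03. Genes kept by filterByExpr (13469) were tested with edgeR 4.0.16 in R 4.3.3 (quasi-likelihood, group only, Benjamini-Hochberg adjustment, threshold 0.05); a log2 fold change is HTB over LTB, and CPM are counts scaled to a common library total with the TMM factors. Alternatives were DESeq2 1.42.0, limma 3.58.1 with voom, other scalings, filters and thresholds, thinned counts, a block on the replicate number, and libraries left out.

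Every member that passed is given in each library. Of the others, the text names by rule those with the largest change in each class and the highest and lowest level. The rule for the lists was the 3 smallest p-values, named for the interferon gamma, ATF4 and scaffold lists. For the elongation, mitochondrial translation factor and mitochondrial tRNA maturation lists only the smallest is named. Farsa, Farsb, Yars, Wars2 and the cytosolic genes near 0 were chosen after their values were seen. Gene spans come from RefSeq (GRCm38.p6) and strands from GENCODE M21, since the deposited strand differed from it in 9 members. In the authors' deposited table, 9 of the 44 members had a q-value under 0.05, 2 higher and 7 lower in HTB. Of the 18223 genes there, 2638 had such a q-value. A comparison of protein sequences between the pairs was not run. Some results are not reported here, and the figures leave them out.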

Additional observations from a re-analysis of the deposited data

Results flagged for a closer look

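In 4 of 92 groups of 5 libraries, 1 library lay far from the other 4; chance gives about 1 in 20. In HTB replicate 2, the library with the high muscle and fat markers, Hars was at 106.5 CPM with the other HTB libraries at 78.46 to 85.31. Qars was at 115.1 CPM there, with the others at 101.9 to 104.7. Tarsl2 was at 19.5 CPM there, with the others at 14.31 to 15.68. The part of muscle and fat tissue in these values was not tested. Pars2 was at 15.23 CPM in LTB replicate 4, with the other LTB libraries at 11.79 to 12.61. None of these 4 genes passed the test between the groups.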

How the results depend on the processing

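Under all 22 alternatives, the median log2 fold change shifted from its main value by less than the spread (SD) between libraries of a group. It was -0.21 to -0.13 for the cytosolic and -0.09 to 0.00 for the mitochondrial enzymes. The median pair difference likewise shifted by less than its spread under 14 alternatives, of which 1, a further pair, was chosen after seeing the data. It was -0.17 with all libraries and -0.21 to -0.10 under the alternatives, smallest in size with HTB replicate 2 and LTB replicate 1 left out. Wars and Kars passed in all 20 other fits. The 1537 genes called over the table became 2527 with DESeq2, 3593 with voom and sample quality weights, 971 with the replicate block, 2908 with HTB replicate 2 and LTB replicate 1 left out, and 388 and 2619 at thresholds of 0.01 and 0.1. Leaving out 1 library gave 736 to 3040 (3040 without HTB replicate 2, 736, 742 and 931 without HTB replicates 3, 4 and 5, and 940 without LTB replicate 3). The 3 members lower in HTB became 7 with DESeq2 and with quality weights, 6 with both libraries left out and 8 at a threshold of 0.1. With 1 library left out they were 2 to 7 (7 without HTB replicate 2). With DESeq2, 15.9% of members were lower, where 8.16% of all genes were. With quality weights the shares were 15.9% and 14.8%, with both libraries left out 13.6% and 12.4%, and without HTB replicate 2 15.9% and 12.7%. The 2 members higher became 1 with the replicate block and 0 at a threshold of 0.01. With 1 library left out they were 0 to 2 (0 without HTB replicate 3 or 4). Over all genes, 1.64% were higher with the block and 1.3% without HTB replicate 3 or 4.

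The replicate numbers did not pair the libraries: deviations of same-numbered libraries correlated at -0.02 to 0.10, and only numbers 1 and 4 matched best with their own. With the block, Mars (adjusted p = 0.117) and Gatc (adjusted p = 0.0783) lost the call, as did Nsun3 (0.0960), Atf3 (0.0623) and Shmt2 (0.1001), while Aars (adjusted p = 0.0357) and Atf4 (0.0452) gained it. The causes were not tested.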

Other observations

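Some members sit next to each other in the genome. The RefSeq spans of Hars and Hars2, the cytosolic and mitochondrial histidine enzymes on opposite strands, overlap by 4 bases, and their log2 fold changes were -0.10 and 0.10, neither past the test. Iars2 and Eprs lie on chromosome 1 with 31997 bases between them, with log2 fold changes of 0.37 and -0.14. The median coefficient of variation over the 44 members was 9.51% in HTB and 7.92% in LTB.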
